A study of Mus musculus with 4 samples.

Results

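The subunits of respiratory complexes II, III, IV and V that the nucleus encodes were compared between young and aged muscle stem cells. Members were the genes whose symbol in the platform annotation is Sdha to Sdhd, Cyc1 or Cycs, or begins with Uqcr, with Atp5 or with Cox followed by a number from 4 to 8, taken from probe sets assigned to exactly 1 gene. This gave 48 genes on 96 probe sets, of 18193 genes in all: 4 of complex II, 10 of complex III with cytochrome c, 17 of complex IV and 17 of complex V. Satellite cells were sorted by syndecan-4 from hindlimb muscle of C57BL/6 mice (C57BL/6J in the strain label) that carried no stated allele and received no stated agent. The young group was 3 to 6 months of age and the aged group 20 to 25 months. Each of the 4 Affymetrix arrays holds the RNA of 1 pool of mice (6 to 8 mice by the sample labels, 4 to 8 by the series text), and there were 2 pools per age, written here as young 1, young 2, aged 1 and aged 2.

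The respiratory chain sits in the inner mitochondrial membrane. Complex II passes electrons from succinate to ubiquinone, complex III passes them from ubiquinol to cytochrome c, and complex IV, cytochrome c oxidase, passes them on to oxygen. Complex V, the ATP synthase, uses the proton gradient to make ATP. Skeletal and heart muscle carry their own isoforms of a few small complex IV subunits, encoded by Cox6a2, Cox7a1 and Cox8b, while Cox6a1, Cox7a2 and Cox8a encode the forms found in most tissues. Satellite cells at rest hold little cytoplasm and few mitochondria compared with the fibres beside them.

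Values are the deposited ones, taken as log2, and each is relative to the median of its probe set over the 4 arrays. The middle pair of every probe set is therefore equal and opposite by construction, and only differences between pools carry information. No level of a gene can be read from them and no gene's level can be set against that of another, so the presence of satellite cell markers in the sort could not be checked. A gene's value is the mean over its probe sets. Differences are aged minus young, ± the standard error of the limma fit (n = 2 pools per age), with p-values adjusted over all genes by the method of Benjamini and Hochberg. Whether separate pools vary as separate animals do is not known, since the mice of a pool are averaged.

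Most members were lower in the aged pools. The log2 difference was below 0 in 44 of 48 members (46.2% of all genes), and its median was -1.16, a 2.23-fold lower value, against 0.05 over all genes. It was -1 or lower in 28 members (9.44% of all genes). Both aged pools lay below both young pools in 36 members (16.9% of all genes), both lay above them in 2 (19.9% of all genes), and the ages overlapped in 10. With limma, 0 members and 0 of 18193 genes passed an adjusted p of 0.05 (0% of genes), and the lowest adjusted p among members was 0.0998, shared by Cox8b and Cox7a1. That limma value was also the lowest over all genes, and 33 genes (0.181%) were lower at an adjusted p under 0.10. At an unadjusted p under 0.05, 23 members were lower (6.19% of all genes) and 0 were higher (2.85% of all genes), while 1645 genes of the whole table were under that value. That count of 23 fell in every fit without 1 pool. Such a fit has only 1 pool in an age, and the share of all genes under that p in it is not given here. Leaving out 1 pool moved the difference of 23 of the 48 members by over 1.5 times or turned its sign, and at least 1 such value is given with each of them.

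**Figure D1:**
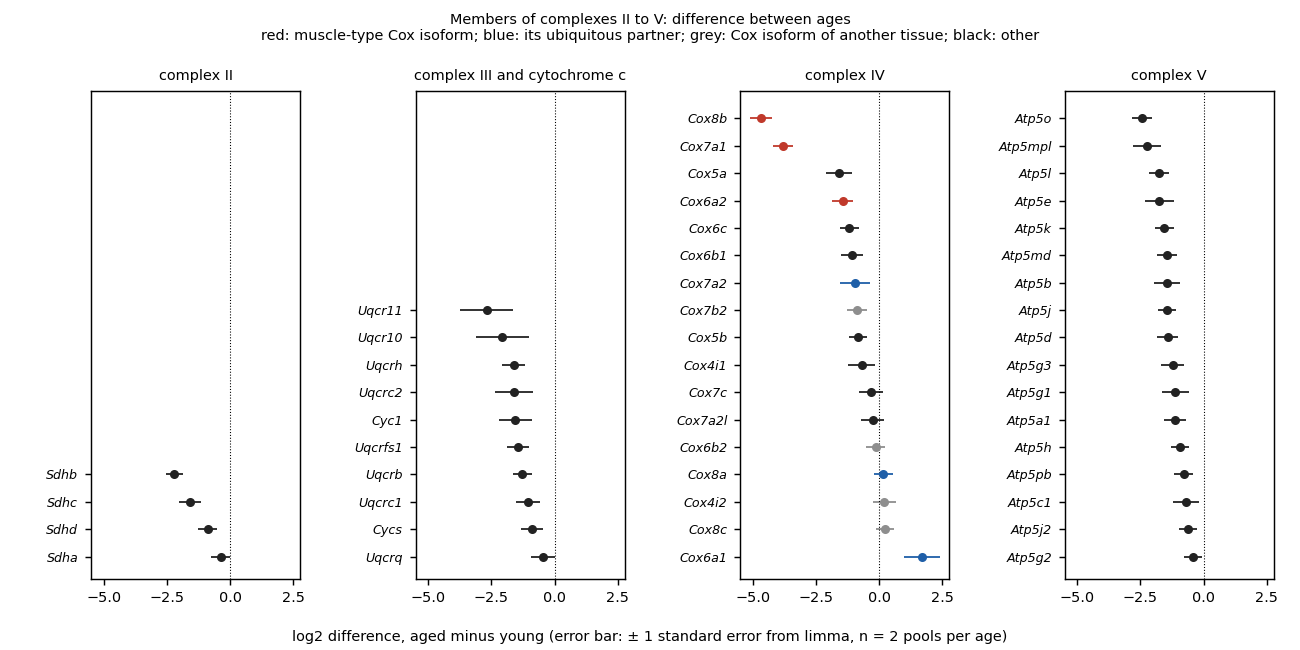
Log2 difference between ages (aged minus young, horizontal axis) of each of the 48 members, by complex, with 1 standard error of the limma fit as the bar (n = 2 pools per age). All members of complexes II, III and V lie left of 0; in complex IV the muscle-type Cox8b (-4.68) and Cox7a1 (-3.80) lie farthest left and the ubiquitous Cox6a1 (1.68) farthest right.

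The fibre marker list stood lower in the aged pools as well. All 30 measured markers of mature fibres stood below 0 (46.2% of all genes), with a median difference of -2.72. The ages did not overlap in 26 (lower without overlap in 16.9% of all genes). At an unadjusted p under 0.05, 25 were lower (6.19% of all genes). The mean over the fibre list was 1.26 in young 1 and 1.15 in young 2, against -1.29 in aged 1 and -1.51 in aged 2. Of 12 satellite cell markers 7 were higher and 5 lower, with a median of 0.05. The ages did not overlap in 4 of these markers, all higher in the aged pools (19.9% of all genes). At an unadjusted p under 0.05, 2 were higher (2.85% of all genes), Pax7 (2.31 ± 0.36) and Myf5 (2.56 ± 0.63). The brown and white adipocyte markers had a median of -0.02 over 8 genes with 0 at an unadjusted p under 0.05. Among other cell types, macrophage markers were lower in 8 of 10 cases (median -1.10; list means of 0.54 and 0.38 in the young pools and -0.72 and -0.45 in the aged pools) and endothelial markers in 8 of 10 (median -0.41). T cell markers were higher in 8 of 8 cases (median 1.04), smooth muscle and pericyte markers in 10 of 10 (median 1.05) and fibro-adipogenic progenitor markers in 8 of 9 (median 0.52). The part of these cell types in the differences of the members was not tested, and in bulk RNA fewer cells of a type and less RNA per cell cannot be told apart.

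The muscle-type isoforms of complex IV were lower in the aged pools, and Cox8b and Cox7a1 had the most negative differences of the 48 members. Cox8b had values of 2.28 and 2.08 in the young pools and -2.93 and -2.08 in the aged pools. Cox7a1 had values of 2.13 and 1.70 in the young pools and -2.07 and -1.70 in the aged pools. Cox6a2 had values of 0.47 and 1.02 in the young pools and -0.51 and -0.89 in the aged pools. In all 3 genes both young pools were above both aged pools (16.9% of all genes). In Cox8b and Cox7a1 the smallest gap between the ages (4.16 and 3.39) was well above the widest gap between pools of the same age (0.84 and 0.43). The difference was -4.68 ± 0.44 for Cox8b (25.7-fold lower, limma adjusted p = 0.0998), -3.80 ± 0.39 for Cox7a1 (13.9-fold lower, limma adjusted p = 0.0998) and -1.45 ± 0.41 for Cox6a2 (2.73-fold lower, limma adjusted p = 0.347). Cox6a2 was read by 2 probe sets, which stood at -2.14 and -0.76, and Cox8b and Cox7a1 by 1 each.

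Their ubiquitous partners did not share this pattern. Cox8a had values of 0.04 and -0.17 in the young pools and 0.31 and -0.12 in the aged pools, so the ages overlapped. Cox7a2 had values of 0.60 and -0.05 in the young pools and 0.05 and -1.41 in the aged pools, again with overlap, since young 2 was below aged 1. Cox6a1 had values of -0.18 and -2.27 in the young pools and 0.50 and 0.41 in the aged pools, with both aged pools above both young pools and young 2 far below the other arrays. The difference was 0.16 ± 0.38 for Cox8a (limma adjusted p = 0.959), -0.96 ± 0.59 for Cox7a2 (0.775) and 1.68 ± 0.72 for Cox6a1 (0.591). The value of Cox6a1 hung on young 2: it was 0.64 without that pool and 2.73 without young 1. That of Cox7a2 ran from -1.69 without aged 1 to -0.23 without aged 2, and that of Cox8a from -0.05 without aged 1 to 0.38 without aged 2.

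**Figure D2:**
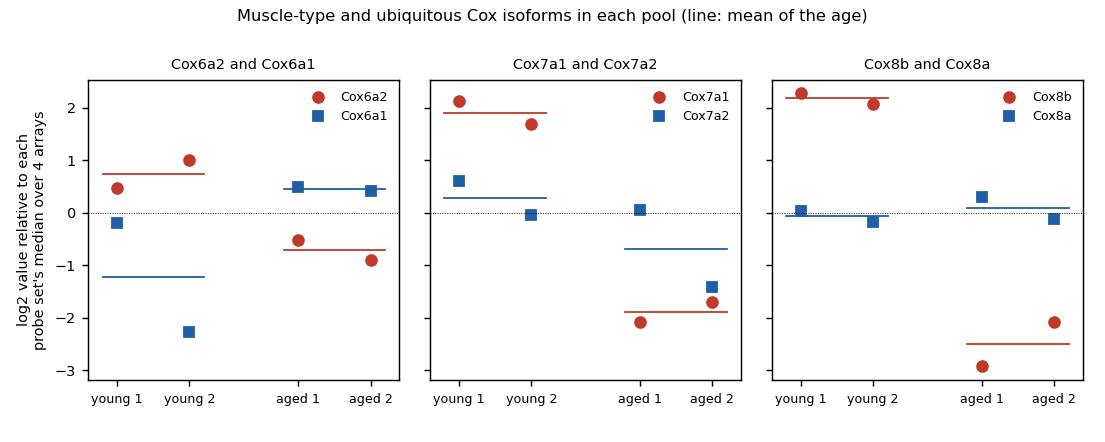
Log2 values relative to the probe set medians (vertical axis) of the muscle-type isoforms (red circles) and their ubiquitous partners (blue squares) in the 4 pools, with a line at the mean of each age. Only the drop or rise of a colour between ages can be read, not its height against the other colour; Cox8b goes from 2.28 and 2.08 to -2.93 and -2.08 while Cox8a stays between -0.17 and 0.31.

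The contrast was then taken within each array, as the muscle-type isoform minus its partner, which gives a change of one isoform relative to the other and no level of either. For Cox8b minus Cox8a it was 2.24 and 2.25 in the young pools and -3.24 and -1.96 in the aged pools, a difference of -4.84 ± 0.64 (standard error from the pooled SD, n = 2 pools per age). For Cox7a1 minus Cox7a2 it was 1.52 and 1.74 in the young pools and -2.12 and -0.29 in the aged pools, a difference of -2.84 ± 0.92. For Cox6a2 minus Cox6a1 it was 0.65 and 3.29 in the young pools and -1.01 and -1.30 in the aged pools, a difference of -3.13 ± 1.32. In each of the 3 pairs every young pool was above every aged pool. The mean of the 3 contrasts was 1.47 and 2.43 in the young pools and -2.12 and -1.19 in the aged pools, a difference of -3.60 ± 0.67, or 12.2-fold. In the exact permutation test over arrays (two-sided) p was 0.333 for the mean and for each pair, the smallest value that 2 against 2 arrays can give, so the design cannot pass 0.05 here. Adjusted over the 8 pairs compared, these 3 and the 5 described next, it was 0.533. Within number 1 the mean contrast differed by -3.59 and within number 2 by -3.61. The numbers are not taken as a pairing, so the closeness of these values carries no weight. The smallest gap between a young and an aged pool was 2.66. Single pairs leaned on single pools: Cox6a2 minus Cox6a1 stood at -1.81 without young 2 and Cox7a1 minus Cox7a2 at -1.92 without aged 1.

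The contrast was extended to 5 further pairs after values had been seen. Among carriers and kinases that also have a muscle-enriched and a general form, the pattern was similar in direction. For the adenine nucleotide carriers, which exchange ADP and ATP across the inner membrane, Slc25a4 (muscle and heart) minus Slc25a5 (general) was 0.86 and 1.04 in the young pools and -1.38 and -0.99 in the aged pools, a difference of -2.14 ± 0.21. Slc25a4 itself stood at -1.52 ± 0.36 (limma adjusted p = 0.269) and Slc25a5 at 0.62 ± 0.36 (0.750). For the mitochondrial creatine kinases, Ckmt2 (sarcomeric) minus Ckmt1 (general) was 1.04 and 0.45 in the young pools and -0.83 and -2.02 in the aged pools, a difference of -2.17 ± 0.66. Both contrasts gave p = 0.333 in the exact permutation test over arrays, and in both the ages did not overlap. Among Cox isoforms of other tissues set against their general forms, all with overlapping ages, Cox4i2 minus Cox4i1 stood at 0.90 ± 1.02 and Cox6b2 minus Cox6b1 at 0.93 ± 0.67 (exact permutation p = 0.667 for each). Cox8c minus Cox8a stood at 0.05 ± 0.30. No such contrast was made for Cox7b2, which by itself stood at -0.87 ± 0.38 with no overlap between ages.

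The promoters of these isoform pairs are shown because the isoforms of a pair differed unequally between ages and because Cox8b and Cox7a1 have few CpGs. RefSeq start sites in GRCm38.p6 gave a promoter for 36 of the 48 members. Cox6a2 was not among them, so its pair is shown by Cox6a1 alone. The 250 bases upstream of the start are printed 5′ to 3′ on the gene's strand, with each CpG in capitals. They lie at chr7:140900447-140900696 on the minus strand for Cox8b, chr19:7217617-7217866 on the minus strand for Cox8a, chr7:30183921-30184170 on the plus strand for Cox7a1, chr9:79759854-79760103 on the minus strand for Cox7a2 and chr5:115348959-115349208 on the minus strand for Cox6a1.
Cox8b: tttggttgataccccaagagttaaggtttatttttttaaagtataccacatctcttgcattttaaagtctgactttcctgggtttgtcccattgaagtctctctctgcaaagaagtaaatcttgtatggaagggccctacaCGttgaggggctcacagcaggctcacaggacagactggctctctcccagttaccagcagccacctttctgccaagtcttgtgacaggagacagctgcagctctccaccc
Cox8a: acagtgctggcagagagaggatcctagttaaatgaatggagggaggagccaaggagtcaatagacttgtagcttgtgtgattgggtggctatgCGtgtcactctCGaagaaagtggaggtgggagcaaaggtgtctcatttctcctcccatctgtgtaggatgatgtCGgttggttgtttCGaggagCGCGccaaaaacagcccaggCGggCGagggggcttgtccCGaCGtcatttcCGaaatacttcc
Cox7a1: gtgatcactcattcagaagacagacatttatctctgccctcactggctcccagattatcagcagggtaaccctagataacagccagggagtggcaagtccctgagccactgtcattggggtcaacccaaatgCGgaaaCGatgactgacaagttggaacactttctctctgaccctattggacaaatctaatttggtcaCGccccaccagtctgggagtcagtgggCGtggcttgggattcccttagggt
Cox7a2: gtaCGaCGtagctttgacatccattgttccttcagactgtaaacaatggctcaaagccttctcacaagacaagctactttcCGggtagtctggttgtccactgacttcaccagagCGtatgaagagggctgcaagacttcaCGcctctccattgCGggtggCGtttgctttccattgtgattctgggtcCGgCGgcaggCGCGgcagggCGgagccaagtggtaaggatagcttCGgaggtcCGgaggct
Cox6a1: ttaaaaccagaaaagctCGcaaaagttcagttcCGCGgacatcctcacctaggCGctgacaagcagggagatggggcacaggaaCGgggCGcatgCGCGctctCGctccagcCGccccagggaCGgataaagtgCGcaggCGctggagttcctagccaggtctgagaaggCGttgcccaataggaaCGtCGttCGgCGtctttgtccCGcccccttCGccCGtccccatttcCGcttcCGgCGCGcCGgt

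Cox8b had 1 CpG in these 250 bases and Cox7a1 had 4, the lowest counts among the 36 members. Their partners Cox8a and Cox7a2 had 11 and 14. Cox6a1 had 26, and no count was available for its muscle-type partner Cox6a2. The median was 14 over the members with a promoter and 6 over 27025 genes. Over the 36 members Spearman's rho between the CpG count and the log2 difference was 0.24, and 0.10 over the 34 members other than Cox8b and Cox7a1. Over 14367 genes with a promoter and a value it was -0.08, and genes with at most 4 CpGs had a median difference of 0.11. Whether CpG content bears on the differences of Cox8b and Cox7a1 was not tested.

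Short motifs were searched on both strands of the same 250 bases, as a description of letters and not of binding. The ETS motif CCGGAAG, bound by the nuclear respiratory factor GABP among others, was in 8 of 36 member promoters (22.2%; 7.05% of all 27025 promoters): those of Atp5e, Atp5h, Atp5l, Cox6a1, Cox6b1, Sdhd, Uqcr11 and Uqcrh. The NRF1 motif was in 4 (11.1%; 2.04% of all), those of Atp5g2, Cox6a1, Sdha and Sdhd. The CCAAT box, CCAAT, was in 20 (55.6%; 34.5% of all), among them Cox7a1, Cox8a and Cox6a1. The myogenic E-box CAGCTG was in 2 (5.56%; 12.8% of all), Cox8b and Atp5b, and the half-site of the estrogen-related receptors, AAGGTCA, in 2 (5.56%; 4.05% of all), Atp5g3 and Atp5l. The GC box GGGCGG was in 12 (33.3%; 32.9% of all), including Cox7a2 and Cox6a1, and TATAAA in 3 (8.33%; 12.97% of all). The MEF2 motif and the YY1 motif ATGGCGG were in 0 member promoters (1.73% and 2.19% of all). Each motif was counted on its own, whether or not it overlapped another, and no match says only that these letters are not in this window.

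The remaining members of complex IV stood on both sides of 0. Those above 0 were the partners Cox6a1 and Cox8a and the isoforms of other tissues Cox4i2 and Cox8c. Of 7 listed single-form or general subunits outside the isoform pairs, 6 were measured (Cox4i1, Cox5a, Cox5b, Cox6b1, Cox6c and Cox7c). All 6 were below 0 (46.2% of all genes), with a median of -0.96. The ages did not overlap in 4 of them (lower without overlap in 16.9% of all genes). Over all 17 members of the complex the median difference was -0.85, and -0.54 without aged 2; over the 14 members other than the muscle-type isoforms it was -0.51, with 10 below 0 and 4 above. The most negative of these was Cox5a, a subunit that faces the matrix, with values of 0.43 and 0.70 in the young pools and -1.64 and -0.41 in the aged pools, no overlap and a difference of -1.59 ± 0.52 (-0.97 without aged 1). Cox6c, a small membrane subunit, had values of 0.63 and 0.36 in the young pools and -0.47 and -0.90 in the aged pools, no overlap and a difference of -1.18 ± 0.39. Cox6b1, which lies on the side of cytochrome c, stood at -1.07 ± 0.45 (-0.65 without aged 2), and Cox5b, the zinc-binding subunit, at -0.85 ± 0.36, both with no overlap between ages. Cox4i1, the general form of the largest nuclear-encoded subunit, stood at -0.70 ± 0.54 with overlapping ages (-0.09 without aged 2 and -1.30 without aged 1).

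In Cox7c and Cox7a2l the ages overlapped. Cox7c, a small membrane subunit, had values of -0.18 and 0.74 in the young pools and -0.26 and 0.18 in the aged pools and a difference of -0.32 ± 0.47. Cox7a2l, a relative of the isoforms above, had values of 0.74 and -0.22 in the young pools and 0.04 and -0.04 in the aged pools and a difference of -0.26 ± 0.46. For both, the direction turned without 1 young pool (0.14 for Cox7c without young 2 and 0.22 for Cox7a2l without young 1).

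Of the 4 isoforms known mainly from other tissues, 2 were lower and 2 higher, and the ages overlapped in 2. Cox4i2, a form induced by low oxygen in lung, had values of -0.69 and 0.29 in the young pools and 0.00 and 0.00 in the aged pools, a difference of 0.20 ± 0.46 (-0.29 without young 1). Cox6b2, of testis, had values of -0.10 and 0.38 in the young pools and -0.10 and 0.10 in the aged pools, a difference of -0.14 ± 0.39 (0.10 without young 2). In each of these 2 genes a pair of arrays carried exactly the same deposited value, which was so in 2 of 96 member probe sets and 4.60% of all probe sets with 1 gene, and the ages overlapped. Cox8c, of testis, had values of -0.14 and 0.00 in the young pools and 0.12 and 0.18 in the aged pools (difference 0.22 ± 0.36), with the aged pools slightly above the young. Cox7b2, of testis, had values of 0.28 and 0.69 in the young pools and -0.28 and -0.49 in the aged pools (difference -0.87 ± 0.38), with the aged pools below the young. All 4 had a limma adjusted p of 0.595 or more.

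Complex II, which is also the succinate dehydrogenase of the citric acid cycle, was lower in all 4 subunits (46.2% of all genes). The ages did not overlap in any (lower without overlap in 16.9% of all genes), and the median difference was -1.24 (2.36-fold). Sdhb, the iron-sulfur subunit, had values of 1.14 and 1.08 in the young pools and -1.09 and -1.08 in the aged pools. Sdhc, a membrane anchor, had values of 1.25 and 0.48 in the young pools and -0.96 and -0.48 in the aged pools. Sdhd, the other anchor, had values of 0.73 and 0.31 in the young pools and -0.51 and -0.23 in the aged pools. In Sdhb the young pools were 0.06 apart and the aged pools 0.01, while in Sdhc young 1 was well above young 2. Sdha, the flavoprotein that oxidises succinate, had values of 0.06 and 0.39 in the young pools and -0.28 and -0.01 in the aged pools, with a gap between the ages of 0.07. The differences were -2.20 ± 0.35 for Sdhb (limma adjusted p = 0.150), -1.59 ± 0.44 for Sdhc (0.345), -0.89 ± 0.39 for Sdhd (0.593) and -0.37 ± 0.38 for Sdha (0.884). Without aged 1 that of Sdha was -0.23, and without young 2 it was -0.205. The 4 probe sets of Sdha were split, with 2 lower (-1.23 and -1.18) and 2 higher (0.24 and 0.68), so its small mean hides opposite readings.

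In complex III with cytochrome c, all 10 members were below 0 (46.2% of all genes), with a median of -1.50 (2.84-fold). The ages did not overlap in 8 (lower without overlap in 16.9% of all genes). The extremes of the complex leaned on single pools. Uqcr11, a small subunit, had values of 0.61 and 0.51 in the young pools and -0.51 and -3.75 in the aged pools: aged 2 was far below the rest, and the difference of -2.69 ± 1.03 became -1.08 without that pool. Uqcr10, another small subunit, had values of 2.45 and -0.13 in the young pools and -1.94 and 0.14 in the aged pools: young 2 and aged 2 were nearly equal, and the difference of -2.06 ± 1.05 came from pools numbered 1 (-4.39 within number 1 and 0.26 within number 2; -0.77 without young 1 and -1.03 without aged 1). Its 3 probe sets ran from -3.82 to -0.64 and were split within number 2. In the lowest, young 2 was 1.53 and aged 2 -1.53, with no overlap between ages. In the others, young 2 was -0.35 and -1.57 and aged 2 was 0.35 and 1.59. The near equality of young 2 and aged 2 thus holds for the mean over probe sets.

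At the other end of complex III, cytochrome c, Cycs, had values of 0.15 and 0.39 in the young pools and -0.98 and -0.26 in the aged pools, with no overlap and a difference of -0.89 ± 0.42 (-0.53 without aged 1). Of its 4 probe sets 3 lay between -1.92 and -1.65 and 1 at 1.69, the widest range among the members whose probe sets went both ways. Uqcrq, which helps to bind ubiquinone, had values of 0.03 and 0.67 in the young pools and -0.58 and 0.36 in the aged pools, with overlap and a difference of -0.46 ± 0.49, and its 4 probe sets ran from -2.23 to 0.62. Without aged 1 its difference was 0.01.

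The catalytic subunits of complex III lay between these ends. Cyc1, cytochrome c1, stood at -1.55 ± 0.66 (-0.61 without aged 1), and Uqcrfs1, the Rieske iron-sulfur protein, at -1.46 ± 0.44. The core proteins Uqcrc2 and Uqcrc1 stood at -1.60 ± 0.75 (-0.57 without aged 2) and -1.05 ± 0.46 (-0.57 without young 2). Uqcrh, the hinge protein that docks cytochrome c, stood at -1.62 ± 0.45 and Uqcrb, which borders the ubiquinone site, at -1.28 ± 0.37. In all 6 both aged pools were below both young pools (16.9% of all genes), and the limma adjusted p-values ran from 0.341 to 0.630.

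**Figure D3:**
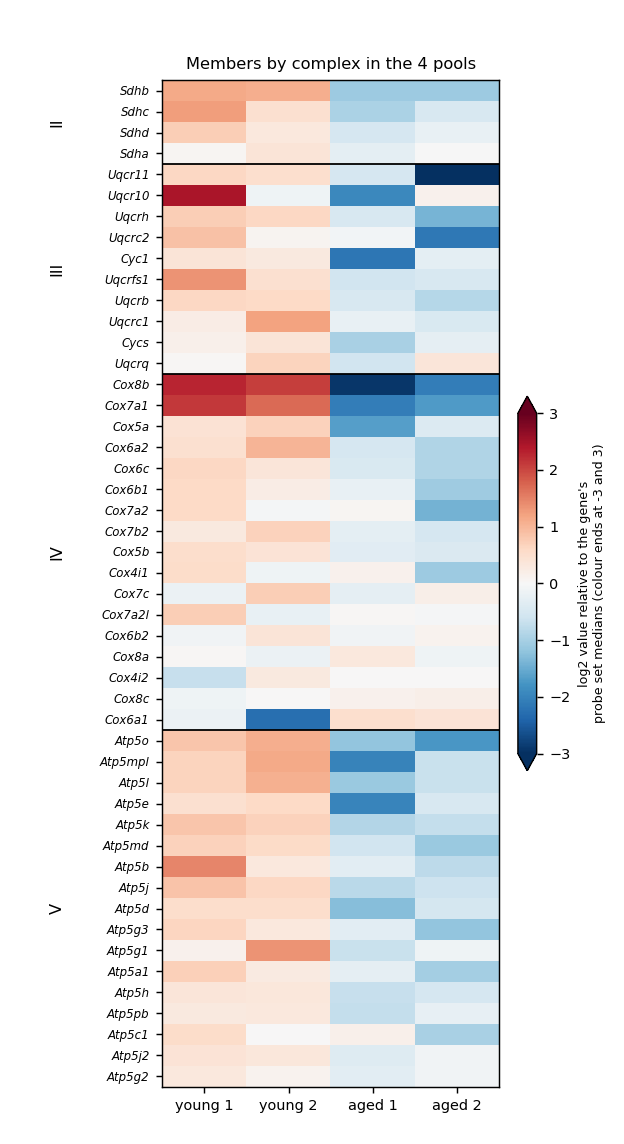
Log2 values relative to the probe set medians (colour) of the 48 members (rows, by complex, sorted by difference) in the 4 pools (columns). Red stands in the young columns and blue in the aged columns for most rows; the exceptions include Uqcr10, where aged 2 (0.14) is above young 2 (-0.13), and Cox6a1, where young 2 is at -2.27.

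Complex V was lower throughout. All 17 members were below 0 (46.2% of all genes), with a median of -1.42 (2.67-fold). Both aged pools lay below both young pools in 16 (16.9% of all genes). At an unadjusted p under 0.05, 12 were lower (6.19% of all genes). All 17 were lower both within number 1 and within number 2, which held for 41 of the 48 members and for 25% of all genes. The peripheral stalk holds the catalytic head still against the turning rotor. Its subunit Atp5o, which confers sensitivity to oligomycin, had values of 0.84 and 1.09 in the young pools and -1.18 and -1.76 in the aged pools, with no overlap and a difference of -2.43 ± 0.40 (limma adjusted p = 0.152). Atp5mpl, a small membrane proteolipid, had values of 0.67 and 1.14 in the young pools and -2.01 and -0.67 in the aged pools, with no overlap and a difference of -2.25 ± 0.55 (4.75-fold lower, limma adjusted p = 0.288).

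The least negative members of complex V were a rotor and a membrane subunit. Atp5g2 had values of 0.33 and 0.11 in the young pools and -0.30 and -0.10 in the aged pools and a difference of -0.42 ± 0.36. Atp5j2 had values of 0.41 and 0.35 in the young pools and -0.39 and -0.11 in the aged pools and a difference of -0.63 ± 0.36. Neither overlapped between ages, but in both a probe set went the other way: the 3 of Atp5g2 stood at -1.97, 0.31 and 0.39, and the 3 of Atp5j2 ran from -1.10 to 0.11. Atp5g1, Atp5g2 and Atp5g3 encode the same mature subunit of the rotor ring, and their differences were -1.13 ± 0.53, -0.42 ± 0.36 and -1.22 ± 0.45. Atp5g1 stood at -0.53 without young 2 and Atp5g3 at -0.79 without aged 2. The 2 probe sets of Atp5g1 stood at -2.63 and 0.37.

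The catalytic head of complex V, its F1 sector, was lower in 5 of 5 subunits with a median of -1.42. The beta subunit Atp5b, which carries the catalytic sites, stood at -1.45 ± 0.52 and the alpha subunit Atp5a1 at -1.13 ± 0.44. The central stalk subunits stood at -0.70 ± 0.52 for gamma (Atp5c1), -1.42 ± 0.42 for delta (Atp5d) and -1.76 ± 0.58 for epsilon (Atp5e). Atp5c1 was the only member of complex V whose ages overlapped (-0.13 without aged 2 and -1.26 without aged 1). Atp5b stood at -0.87 without young 1 and -2.03 without young 2, and Atp5e at -1.01 without aged 1.

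The membrane sector and stalk of complex V were lower in 10 of 10 listed subunits, with a median of -1.18. No overlap was seen in any (lower without overlap in 16.9% of all genes). The remaining stalk subunits were Atp5j at -1.45 ± 0.37, Atp5h at -0.94 ± 0.36 and Atp5pb at -0.79 ± 0.38. Among the subunits that tie synthase dimers together, Atp5l stood at -1.77 ± 0.40 and Atp5k at -1.55 ± 0.36. Atp5md, which stabilises dimers, stood at -1.47 ± 0.39. Their limma adjusted p-values ran from 0.240 to 0.642.

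**Figure D4:**
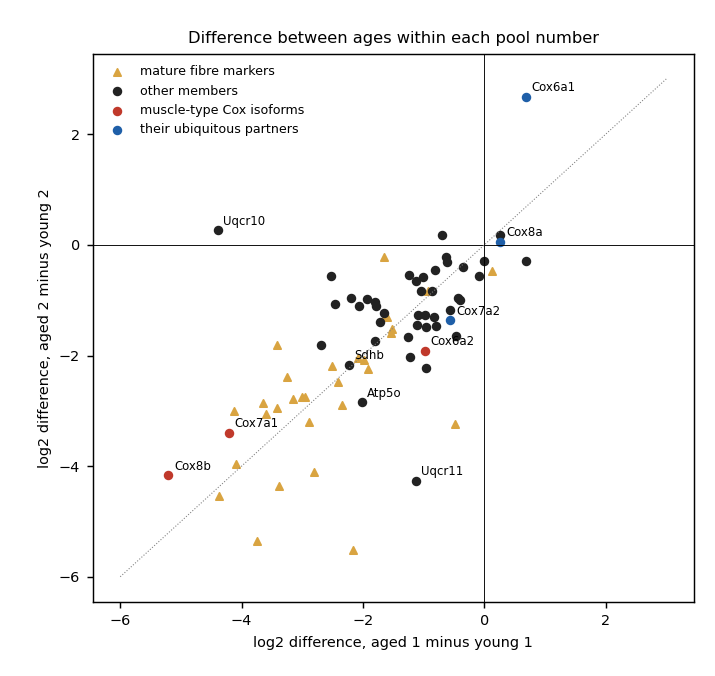
Log2 difference of each member within number 1 (aged 1 minus young 1, horizontal axis) against that within number 2 (aged 2 minus young 2, vertical axis), with the 30 mature fibre markers as triangles; the dotted line marks equality. Most points lie below 0 on both axes; Uqcr10 (-4.39 and 0.26) and Uqcr11 (-1.13 and -4.26) lie far from the line.

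The pools of an age did not give the same order of members. Aged 1 was the lowest array for 24 members and aged 2 for 18, and young 1 was the highest for 29 and young 2 for 16. In complex II aged 1 was the lowest array for all 4 subunits, and in complex V for 11 of 17. The median over the members was -1.03 within number 1 and -1.08 within number 2. For complex II it was -1.72 and -0.76, for complex III -1.13 and -1.21, for complex IV -0.57 and -0.97 and for complex V -1.26 and -1.24. Complex II thus differed more within number 1 and complex IV more within number 2, while complexes III and V were near equal. The numbers are labels and are not taken as a pairing.

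Single probe sets give the same picture with exceptions. Of the 96 member probe sets 80 were lower in the aged pools (83.3%, against 47.2% of all probe sets with 1 gene), with a median of -1.16. Of the 30 members with several probe sets, 20 had all of them lower and 9 had them in both directions: Atp5g1, Atp5g2, Atp5j2, Cox5b, Cox8a, Cox8c, Cycs, Sdha and Uqcrq. Cox5b had 6, of which 4 ran from -1.56 to -1.30 and 2 stood at 0.19 and 0.60. Many respiratory genes have processed copies in the genome, and probe sets named _x_at or _s_at can match several transcripts. Of 27 such probe sets 24 were lower (median -1.18), and of the other 69, 56 were lower (median -1.09).

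**Figure D5:**
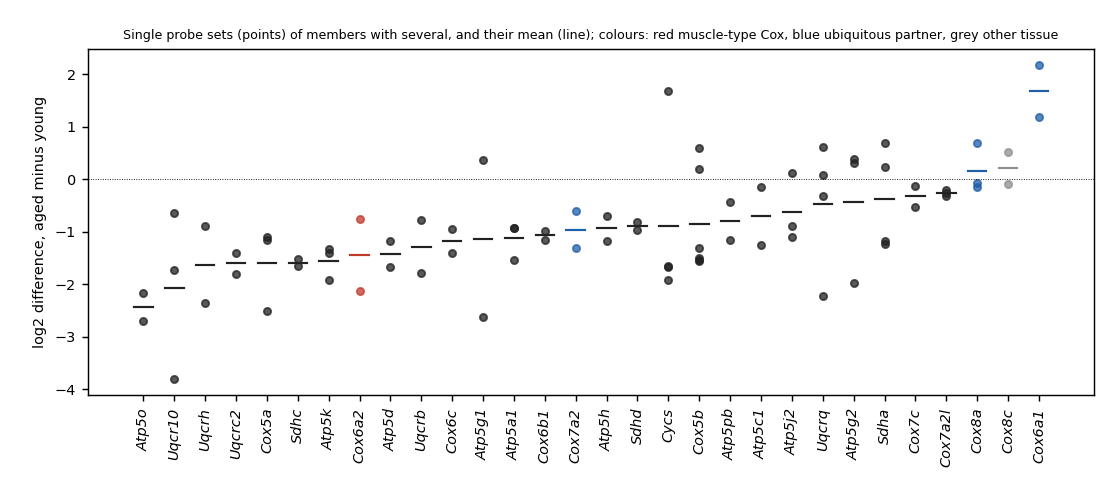
Log2 difference between ages (vertical axis) of every probe set (points) of the 30 members with several, with the mean used as the gene's value (line). Members are sorted by that mean; Cycs spans -1.92 to 1.69 and Atp5g1 -2.63 to 0.37, while Sdhc, Atp5o and Atp5k have all their points below -1.

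Factors that assemble these complexes stood on both sides of 0. Measured were 30 of 33 listed, of which 21 lay below 0 (70.0%, against 46.2% of all genes) and 9 above, with a median difference of -0.42. Both aged pools lay below both young pools in 10 (16.9% of all genes) and above them in 4 (19.9% of all genes). The difference was -1 or lower in 9 (9.44% of all genes). At an unadjusted p under 0.05 there were 3 lower (6.19% of all genes) and 1 higher (2.85% of all genes). By that p alone, the shares of these few genes lie near those over the array. The lowest were Atpaf1, which helps to build the F1 head (-2.27 ± 0.54, limma adjusted p = 0.270), and Coa3, an assembly factor of complex IV (-1.81 ± 0.36, 0.196). The highest were Lyrm7, which helps the Rieske protein into complex III (1.54 ± 0.53, 0.461; 0.89 without aged 2), and Pet100, an assembly factor of complex IV (1.23 ± 0.59, 0.642; 0.54 without aged 1). The difference between this list and the subunits was not tested.

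Regulators of mitochondrial content did so too. Among the 17 measured, 11 lay below 0 (46.2% of all genes) and 6 above, with a median difference of -0.63. At an unadjusted p under 0.05, 4 were lower (6.19% of all genes) and 0 higher (2.85% of all genes). Ppargc1a, the coactivator PGC-1 alpha that drives mitochondrial genes in oxidative muscle, had values of 1.44 and 1.27 in the young pools and -0.92 and -0.80 in the aged pools, a difference of -2.21 ± 0.36 (limma adjusted p = 0.150). Tfb2m, a mitochondrial transcription factor, stood at -1.93 ± 0.40 (0.211) and Tfam, which packs and transcribes mitochondrial DNA, at -0.87 ± 0.42 (0.642; -0.51 without aged 1). The nuclear factors that bind respiratory gene promoters stood at 0.38 ± 0.42 for Nrf1 (0.022 without aged 1), 1.14 ± 0.52 for Gabpa (0.55 without aged 1) and 0.27 ± 0.57 for Esrra (-0.41 without aged 1 and -0.03 without young 1), and the mitochondrial polymerase Polg at 0.64 ± 0.39 (0.38 without young 1). Of the 8 carriers and channels 7 were lower (median -1.35), among them Ckmt2 (-2.22 ± 0.54) and Vdac3, a pore of the outer membrane (-1.57 ± 0.92, with overlapping ages; -0.34 without aged 2 and -2.80 without aged 1). Ckmt1 stood at -0.05 ± 0.38 (0.16 without young 2).

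Other mitochondrial families are given for scale. Of 34 complex I subunits 33 were lower, with a median of -1.43 and 24 lower at an unadjusted p under 0.05. Of 76 mitochondrial ribosomal protein genes 63 were lower, with a median of -0.70 and 17 lower at that p. Over all genes 46.2% were lower, and 6.19% were lower at that p. The differences between these families and complexes II to V were not tested.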

How the data were processed

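RNA of 4 pools of syndecan-4-sorted satellite cells went through a pair of linear T7 amplification rounds and was biotin-labelled and hybridised to Affymetrix arrays, per the labels' protocols. The deposited table holds log2 values of 45101 probe sets (base assumed); background correction, probe summary and normalization were not given in the sources used here. Every row's median is 0 within 5e-07. The platform annotation named the probe sets (34945 with 1 gene, 932 with several, 9160 with none, 64 controls), with symbols updated by Entrez ID to GRCm38.p6 names, and averaged to 18193 genes. The comparison of ages used R 4.3.3 and limma 3.58.1 (lmFit and eBayes, no trend; 2 residual and 3.56 prior degrees of freedom), two-sided, Benjamini-Hochberg over all genes. On simulated data, recovery of planted difference sizes by the fit was checked, and its p-values are not backed by that check. Isoform contrasts used scipy 1.17.1, figures matplotlib 3.10.9. Precision is limited by the number of arrays; array medians lay between -0.07 and 0.05, upper quartiles between 0.22 and 0.38, and scan dates were not analysed here. Every member was named; other genes came from lists of assembly factors, regulators and carriers, by the 2 lowest and 2 highest differences plus Ppargc1a, Tfam, Nrf1, Esrra, Slc25a4 and Slc25a5 (5 isoform contrasts were added after values were seen). Members and lists were chosen with earlier results of these data known. Alternatives were other normalizations, probe set choices, a variance trend, a replicate block and leaving out each pool.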

Additional observations from a re-analysis of the deposited data

How the results depend on the processing

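With 2 pools per age, no filter on dim genes possible and the log base unstated, folds are provisional and calls are hard to reach. The number of members lower in aged pools was 42 to 44 of 48 under every normalization and every pool left out, 43 when the most variable probe set stood for each gene, 42 of 46 without probe sets named _x_at or _s_at, 44 by current symbols, and 27 of 30 over members with 2 or more probe sets. Members at an unadjusted p under 0.05 were 11 to 19 without 1 pool (a fit with fewer samples), against 23. The variance trend called 221 of 18193 genes (195 lower), among them 3 members, Cox8b, Cox7a1 and Sdhb, where the fit without it called 0. Each probe set is centred on its median, so a trend on the mean has no meaning as one on intensity. Those calls are not taken as results. By quantile normalization the median was -1.34 for complex III and -1.28 for complex V. By the most variable probe set they were -1.67 and -1.53. Without _x_at and _s_at probe sets the medians were -1.37 for complex III, -0.70 for complex IV and -1.22 for complex V. Without 1 pool the medians ran from -1.54 to -0.94 for complex II, the widest range of the complexes. They ran from -1.64 to -1.14 for complex III, -0.97 to -0.54 for complex IV and -1.42 to -1.21 for complex V. The mean isoform contrast ran from -4.08 to -3.13 without 1 pool and kept its sign under all settings run.

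Of 478 member values under alternatives 9 turned sign, in 7 members. Leaving out 1 pool, the difference ran from -0.29 to 0.69 for Cox4i2, -0.38 to 0.10 for Cox6b2, -0.74 to 0.22 for Cox7a2l, -0.78 to 0.14 for Cox7c, -0.054 to 0.38 for Cox8a and -0.93 to 0.013 for Uqcrq. Without _x_at and _s_at probe sets Cox8a stood at -0.11 and Uqcrq at 0.13, and by the most variable probe set Cycs stood at 1.69. Outside the members, Esrra ran from -0.41 to 0.96 and Ckmt1 from -0.27 to 0.16 without 1 pool, and by the most variable probe set they stood at -0.60 and 0.026. The cause was not tested.

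Pools with the same number deviated together only weakly (correlation 0.14 over genes, from 2 pairs), so the number is not taken as a pairing. With the replicate block 26 members had an unadjusted p under 0.05 and 0 genes passed the adjusted threshold. The share of all genes under that unadjusted p in this fit is not given here, so the 26 cannot be set against it.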
